A study of Mus musculus with 2 samples.

Results

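Microglia, the resident macrophages of the brain, keep a set of transcripts in the healthy brain by which they can be told from blood-derived myeloid cells. Here 9 genes of this homeostatic set, namely Tmem119, Olfml3, Gpr34, Fcrls, Sparc, Slc2a5, Selplg, Golm1 and Crybb1, were followed in sorted microglia. The genes were taken by name as known markers of this identity, and all 9 were found among the 53801 genes listed in each library. The identity they mark is held up in the brain by TGF-β signaling and by factors such as SALL1 and PU.1, and it is known to weaken when microglia respond to injury or are taken out of the brain.

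The counts came from 2 bulk RNA-seq libraries of sham microglia, each from 1 mouse. The mice had the genotype Cx3cr1(CreER/wt) on a C57BL/6 background, so that 1 allele of Cx3cr1, a gene of myeloid cells, carried the tamoxifen-inducible Cre recombinase. They had received tamoxifen at 75 mg/kg/day for 4 days. At 14 days after the first dose, as males of 8 to 10 weeks, they underwent sham surgery for occlusion of the middle cerebral artery, and the left hemisphere was collected 3 days later. The study's methods describe older mice and both sexes, and the treatment of each sample is labelled as none. Cells were sorted as CD11c–Ly6G–CD11b+CD45low. The libraries of the occlusion arm were not analysed here, so no comparison between conditions was made, and every comparison below is between genes or between the 2 mice. With 1 group of 2 libraries no test of significance was run. Errors are the SD of the 2 libraries (n = 2).

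Replicate 1 held 23381026 counts and replicate 2 held 41142609. Levels are counts scaled to 1000000 counts on genes in each library (CPM), which are not corrected for gene length. A gene was called counted with at least 10 counts in both libraries, which left 13445 genes. The libraries were not alike in their other cells. Of 10 immature neutrophil markers, 10 were over 2-fold higher in replicate 2, as were 5.74% of all counted genes, and their summed level was 2110 CPM in replicate 1 and 34084 CPM in replicate 2. Of 9 mature neutrophil markers 8 were over 2-fold higher, with sums of 3545 and 32025 CPM. Ly6g, which encodes the antigen gated out, had 360 and 8662 counts. Scaling can decide the direction of small differences between these libraries. TMM normalization moved the median log2 ratio of all counted genes by 0.26 and DESeq2 size factors moved it by 0.27.

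All 9 genes were abundant in both libraries. Together they held 2.996% of the counts in replicate 1 (95% Wilson interval 2.989% to 3.003%) and 3.367% in replicate 2 (3.361% to 3.372%), or 31811 ± 2622 CPM (SD, n = 2). These intervals leave out differences between mice. They also understate counting error, since they treat reads as independent and amplified reads are not independent molecules. Ranked by counts, 6 of the 9 were among the 50 highest genes in each library, and the lowest was at rank 542 in replicate 1 and 462 in replicate 2. The mean CPM, uncorrected for length, ran from 282 for Crybb1 to 6960 for Selplg. In bulk RNA, fewer cells of a type and less RNA per cell cannot be told apart.

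**Figure D1:**
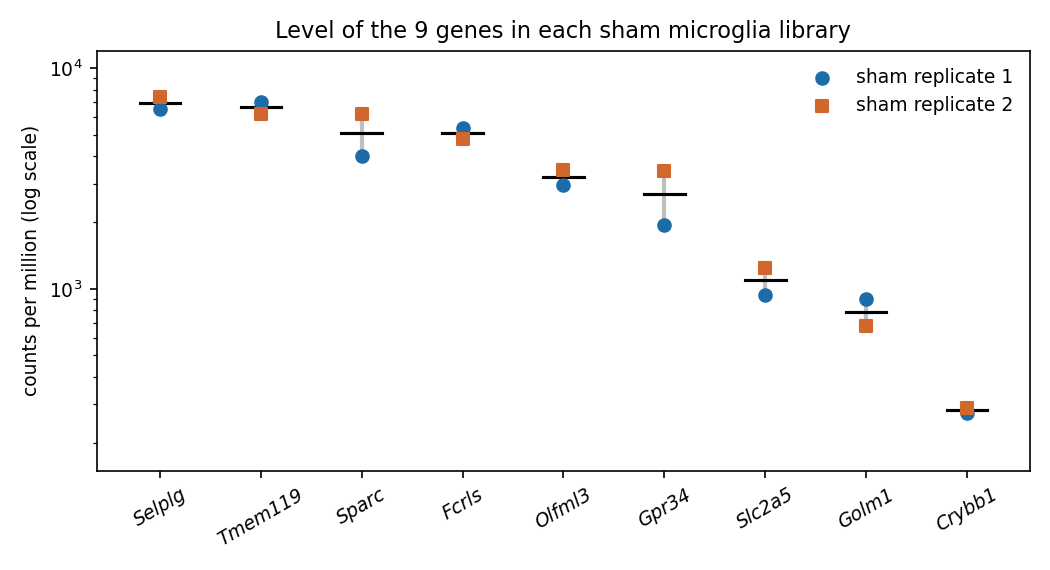
Level of each of the 9 genes in CPM (log scale) in sham replicate 1 (circles) and sham replicate 2 (squares), with black bars for the mean of the 2 libraries and grey lines joining them. The means run from 6960 CPM for Selplg to 282 CPM for Crybb1, and the gap between libraries is widest on this scale for Gpr34 and Sparc.

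Among the surface proteins, Tmem119 encodes a membrane protein that is widely used to stain microglia. It lies on chromosome 5 (GRCm38, 113793729 to 113800516, minus strand; ENSMUSG00000054675). Tmem119 had 165010 counts in replicate 1 and 256265 in replicate 2, or 7057 CPM (95% Wilson interval 7024 to 7091) and 6229 CPM (6205 to 6253), and ranked 8 and 18. The mean was 6643 ± 586 CPM (SD, n = 2). Replicate 1 was higher by 1.13-fold, a direction that turned with TMM (log2 ratio 0.08) and with DESeq2 size factors (0.09).

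Selplg encodes PSGL-1, a mucin-like ligand of the selectins that blood leukocytes, neutrophils among them, also carry. It is the next protein-coding gene to Tmem119 on the same strand (chromosome 5, 113818536 to 113832644; ENSMUSG00000048163), 18019 bases away. Selplg had 152904 counts in replicate 1 and 303654 in replicate 2, which gave 6540 and 7381 CPM and ranks of 10 and 15. Its mean of 6960 ± 595 CPM (SD, n = 2) was the highest CPM of the 9, and replicate 2 was higher by 1.13-fold. The part of the neutrophil markers in this value was not tested. The coding genes on either side of the pair were Iscu, with 155 and 208 CPM, and Coro1c, with 122 and 66.8 CPM.

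PSGL-1 binds selectins only after sulfation and glycosylation, and the genes of that machinery were read beside it. Of 12 listed genes, Selplg included, 11 were counted, 2 of them over 2-fold higher and 3 over 2-fold lower in replicate 2, where 5.74% and 25.9% of all counted genes were. The tyrosine sulfotransferase gene Tpst2 had 648 and 633 CPM and Tpst1 had 28.9 and 19.7 CPM, which per kilobase of exon was 229 ± 3.95 against 8.72 ± 2.33 CPM per kilobase (SD, n = 2). The sialyltransferase gene St3gal6 had 376 and 550 CPM, and St3gal4 had 28.5 and 30.1 CPM. The galactosyltransferase gene B4galt1 had 284 and 88.6 CPM, and Gcnt1, which starts the core branch, had 236 and 106 CPM. The fucosyltransferase genes had 352 and 116 counts for Fut4 and 35 and 220 counts for Fut7. Selp, the selectin gene of platelets and endothelium, had 11 and 35 counts, and Sele, that of activated endothelium, had 1 count in each library.

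Fcrls, an Fc receptor-like gene of microglia, lies on chromosome 3 (87250758 to 87263738, minus strand; ENSMUSG00000015852). It had 125024 and 196670 counts, or 5347 CPM in replicate 1 and 4780 CPM in replicate 2, with ranks of 13 and 22. The mean was 5064 ± 401 CPM (SD, n = 2), and replicate 1 was higher by 1.12-fold, which turned with TMM (log2 ratio 0.10) and DESeq2 size factors (0.11). After adjustment for GC content and length, replicate 1 was again higher (log2 ratio −0.24). Per kilobase of exon, Fcrls had 2170 ± 172 CPM per kilobase and Fcrl1, the next of its listed relatives, 28.3 ± 5.63 (SD, n = 2). Fcrl1, a B cell gene, had 86.7 and 115 CPM beside 587 and 801 CPM for the sum of 6 B cell markers, Fcrlb had 3.16 and 1.85 CPM, and Fcrla, Fcrl5 and Fcrl6 were not counted.

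Gpr34 encodes a receptor for lysophosphatidylserine of the same receptor group as P2ry12. It lies on the X chromosome (13632089 to 13640858, plus strand; ENSMUSG00000040229) inside the locus of Cask, which runs on the opposite strand and shares no exon base with it. Gpr34 had 45607 counts in replicate 1 and 140060 in replicate 2, or 1951 and 3404 CPM, and ranked 46 and 33. Its mean was 2677 ± 1028 CPM (SD, n = 2), and the 1.75-fold difference was the widest among the 9 genes by CPM. With TMM and DESeq2 size factors the log2 ratio was 1.06 and 1.08, past 2-fold, and without the neutrophil lists in the total it was 0.89. Of the 8 genes in its family list, 6 were counted. P2ry12, the ADP receptor of microglial processes, had 4575 and 7450 CPM, and P2ry13 had 2794 and 3104 CPM. Per kilobase of exon, P2ry12 had 2362 ± 799, Gpr34 1281 ± 492 and P2ry13 1167 ± 86.6 CPM per kilobase (SD, n = 2), and the libraries of Gpr34 and P2ry13 overlapped. The other genes had few counts, with 21 and 12 counts for its neighbour Gpr82, 24 and 124 for P2ry14, 21 and 36 for P2ry10, and 0 for Gpr174.

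Slc2a5 encodes the fructose transporter GLUT5 (chromosome 4, 150119283 to 150144169, plus strand; ENSMUSG00000028976). It had 21967 and 51187 counts, or 940 CPM in replicate 1 and 1244 CPM in replicate 2, and ranked 111 and 90. The mean was 1092 ± 215 CPM (SD, n = 2), and replicate 2 was higher by 1.32-fold. Per kilobase of exon, Slc2a5 was the highest of the 12 hexose transporter genes listed, with 321 ± 63.3 CPM per kilobase (SD, n = 2), and Slc2a8 was next with 31.4 ± 3.78. By CPM, Slc2a8 had 109 and 92.2 CPM, and the glucose transporter genes Slc2a1 and Slc2a3 had 77.6 and 72.2 CPM and 25.7 and 69.9 CPM. Slc2a6 had 17.2 and 28.5 CPM, Slc2a9 had 7.14 and 5.32 CPM, and Slc2a12 had 11 and 49 counts. The adjacent fructose transporter gene Slc2a7, which starts 4802 bases after the end of Slc2a5, had 0 counts in both libraries, which allows up to 0.128 and 0.0729 CPM.

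Of the secreted proteins, Sparc encodes a collagen-binding matrix protein that endothelial cells and other stromal cells also make. It lies on chromosome 11 (55394500 to 55423183, minus strand; ENSMUSG00000018593). Sparc had 93153 counts in replicate 1 and 255699 in replicate 2, or 3984 and 6215 CPM, and ranked 22 and 19. The mean was 5100 ± 1577 CPM (SD, n = 2), and replicate 2 was higher by 1.56-fold. Of 8 endothelial markers 3 were counted, with sums of 23.2 and 17.6 CPM, of which Pecam1 held 16.1 and 14.4 CPM, while Cldn5 had 1 count in each library and Tek had 0. Of 6 mural cell markers 1 was counted, Acta2 with 21 and 316 counts, and their sums were 2.44 and 9.07 CPM. No fibroblast list was read, and the part of other cells in the level of Sparc was not tested. The astrocyte sum was 237 and 199 CPM, of which Slc1a3 held 219 and 169 CPM, while Gfap had 27 and 32 counts. Among the 7 other genes of the SPARC family listed, Sparcl1 was the sole one counted, with 2.57 and 7.41 CPM.

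Olfml3 encodes a secreted olfactomedin-like protein (chromosome 3, 103722222 to 103738001, minus strand; ENSMUSG00000027848). It had 69329 and 141716 counts, or 2965 CPM in replicate 1 and 3445 CPM in replicate 2, with ranks of 27 and 31. Its mean was 3205 ± 339 CPM (SD, n = 2), and replicate 2 was higher by 1.16-fold. Olfml2b had 85.8 and 64.0 CPM, and Olfml2a and Olfml1 were not counted. The span of Olfml3 in the files is 15780 bases, while RefSeq gives the gene 2608 bases, so values of Olfml3 that use its length depend on the gene model.

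Inside the cell, Golm1 encodes a membrane protein of the Golgi apparatus (chromosome 13, 59634626 to 59675811, minus strand; ENSMUSG00000021556). It had 21014 counts in replicate 1 and 27928 in replicate 2, or 899 and 679 CPM, and ranked 122 and 182. The mean was 789 ± 156 CPM (SD, n = 2). Golm1 was the sole member that was lower in replicate 2 under each of the 4 other library scalings, by 1.32-fold in CPM, but it was slightly higher after adjustment for GC content and length (log2 ratio 0.06). Its exons share 1297 bases with those of Naa35 on the opposite strand. Whether the counting used strand is not given in the sources used here, so the count of Golm1 is uncertain by what this overlap gave or took. Naa35 had 74.3 and 79.7 CPM. Casc4, its close relative, had 9.45 and 3.21 CPM.

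Crybb1 encodes a β-crystallin, a family known as structural proteins of the eye lens (chromosome 5, 112255815 to 112269585, plus strand; ENSMUSG00000029343). It had 6417 and 11901 counts, or 274 CPM (95% Wilson interval 268 to 281) and 289 CPM (284 to 295), and ranked 542 and 462. With 282 ± 10.5 CPM (SD, n = 2) it had the lowest CPM of the 9 genes and was the one whose libraries lay closest, 1.05-fold apart. Of the 5 other crystallin genes listed, Cryba4 was the sole one counted, with 55.2 and 64.9 CPM, or 71.6 ± 8.20 CPM per kilobase of exon against 286 ± 10.6 for Crybb1 (SD, n = 2), and it lies 3296 bases from Crybb1 on the opposite strand. Crybb3 had 0 and 3 counts, and Cryba1, Cryba2 and Crybb2 had 0 in both. Tpst2, described above with Selplg, lies 7105 bases beyond the other end of Crybb1.

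The start regions of these genes were read from RefSeq (GRCm38.p6), which held windows of 300 bases around 1 transcript start each for Fcrls, Olfml3, Slc2a5, Crybb1, Sparc and Golm1. For Olfml3, Slc2a5, Sparc and Golm1, 250 bases lay outside the RefSeq gene. The start used for Fcrls and Crybb1 lies inside the RefSeq gene, with 9 and 0 bases of the window outside it, and 36 and 245 outside the GENCODE M21 gene, so the window of Fcrls is mostly gene sequence. The whole window of Sparc lies inside its GENCODE M21 gene. Tmem119, Gpr34 and Selplg had no entry. The letters of 4 motifs were searched on both strands. The PU.1 core GAGGAA was found in 1 of the 6 windows, against 28.3% of all 32851 windows. The MAF half-site TGCTGA was found in 3 of 6 (Fcrls, Crybb1 and Sparc), against 19.5%. The TATA box letters TATAAA were found in 3 of 6 (Fcrls, Crybb1 and Golm1), against 13.6%, and the AP-1 letters TGANTCA in 0 of 6, against 7.81%. With 6 windows these shares describe the letters and no more. MAF factors are known regulators of crystallin genes in the lens. The windows of Fcrls (chr3:87263475-87263774, minus strand) and Crybb1 (chr5:112255570-112255869, plus strand) are shown because both hold the MAF and the TATA letters. Each reads 5′ to 3′ on the strand of the gene, with the matches in capitals. None of the matches overlapped. In Crybb1 the MAF letters began 84 bases and the TATA letters 30 bases before the start used. In Fcrls the TATA letters came first, then the PU.1 core, then the MAF half-site.
Fcrls: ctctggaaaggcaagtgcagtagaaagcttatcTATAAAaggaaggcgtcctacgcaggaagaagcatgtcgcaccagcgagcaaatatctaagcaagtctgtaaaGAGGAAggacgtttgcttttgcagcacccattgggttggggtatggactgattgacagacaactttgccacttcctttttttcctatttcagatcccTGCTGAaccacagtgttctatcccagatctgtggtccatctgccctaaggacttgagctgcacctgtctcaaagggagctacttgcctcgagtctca
Crybb1: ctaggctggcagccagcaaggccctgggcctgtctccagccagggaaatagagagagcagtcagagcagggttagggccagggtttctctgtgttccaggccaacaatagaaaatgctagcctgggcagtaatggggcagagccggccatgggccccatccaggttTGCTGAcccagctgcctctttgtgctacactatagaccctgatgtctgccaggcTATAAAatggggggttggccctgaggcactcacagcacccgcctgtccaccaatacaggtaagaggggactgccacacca

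Counts of a long transcript exceed those of a short one at the same number of molecules, so the order of the 9 genes was also read per kilobase. Per kilobase of all exon bases, Tmem119 was highest with 2870 ± 253 CPM per kilobase (SD, n = 2) and Fcrls followed with 2170 ± 172. Selplg had 1629 ± 139, Sparc 1346 ± 416 and Gpr34 1281 ± 492 CPM per kilobase. The libraries of Selplg and Sparc overlapped, as did those of Sparc and Gpr34. The lower genes were Olfml3 with 520 ± 55.0, Slc2a5 with 321 ± 63.3, Crybb1 with 286 ± 10.6 and Golm1 with 178 ± 35.2 CPM per kilobase, of which Slc2a5 and Crybb1 overlapped. The top of this order turned with the length used. Per kilobase of the longest protein-coding transcript, an alternative chosen after the files were seen, Selplg was highest with 3752 ± 321 CPM per kilobase, then Tmem119 with 2963 ± 261, Fcrls with 2228 ± 176 and Sparc with 2217 ± 686, the last 2 overlapping. The order from Gpr34 down to Golm1 stayed as it was.

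By CPM the 2 libraries gave levels within 2-fold for each of the 9 genes, while Gpr34 passed 2-fold with TMM and DESeq2 size factors and Olfml3 after the GC content and length adjustment. Under TMM 8.87% of the counted genes were over 2-fold higher in replicate 2 and 19.4% over 2-fold lower, and under DESeq2 size factors 9.28% and 19%. Of the 9 genes 0 were over 2-fold apart between the mice, while 31.7% of the 13445 counted genes were. Of the 476 counted genes with a mean CPM at least that of Crybb1, 17.9% were over 2-fold apart, so that 0 of 9 is read against this smaller share. At 1.5-fold, Gpr34 and Sparc were apart. The median log2 ratio, replicate 2 over replicate 1, was 0.17 for the 9 genes, −0.26 for all counted genes and 0.08 for the 476 abundant ones. By CPM 6 genes were higher in replicate 2 and 3 were lower, but 8 were higher and 1 lower with TMM, with DESeq2 size factors and after the GC content and length adjustment. The lower gene was Golm1 with TMM and DESeq2 size factors, but Fcrls after the adjustment. Across the 9 genes the levels of the 2 libraries had a Spearman correlation of 0.967, over genes that share libraries and are not independent replicates.

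**Figure D2:**
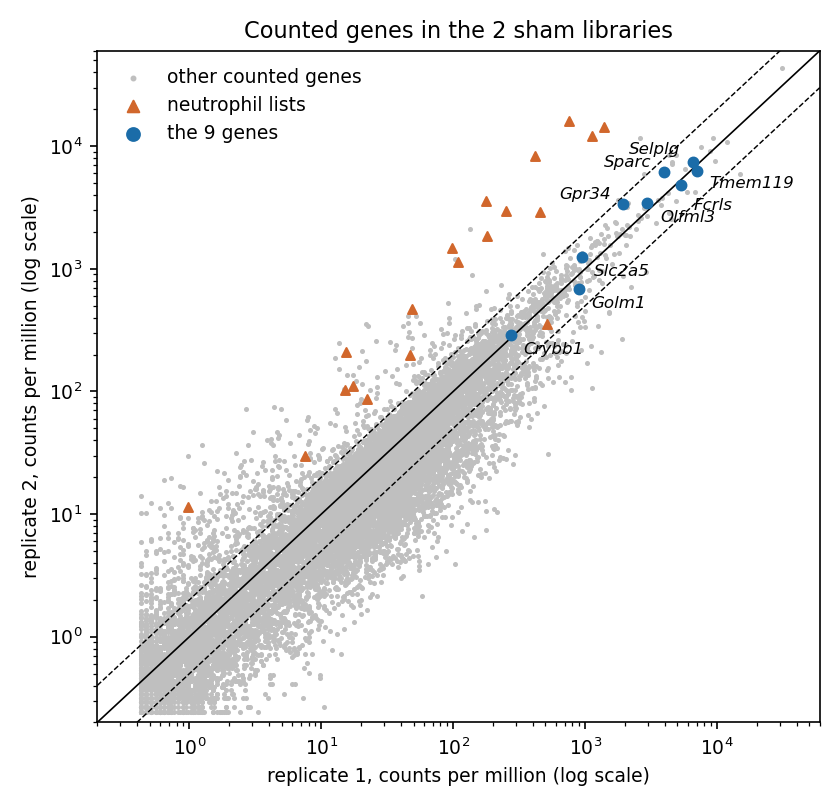
CPM of the 13445 counted genes in sham replicate 1 (x axis) and sham replicate 2 (y axis), both on log scales, with the solid line at equal levels and dashed lines at 2-fold. The 9 genes (circles) lie within the dashed lines, while all but 1 of the neutrophil markers (triangles) lie above them.

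**Figure D3:**
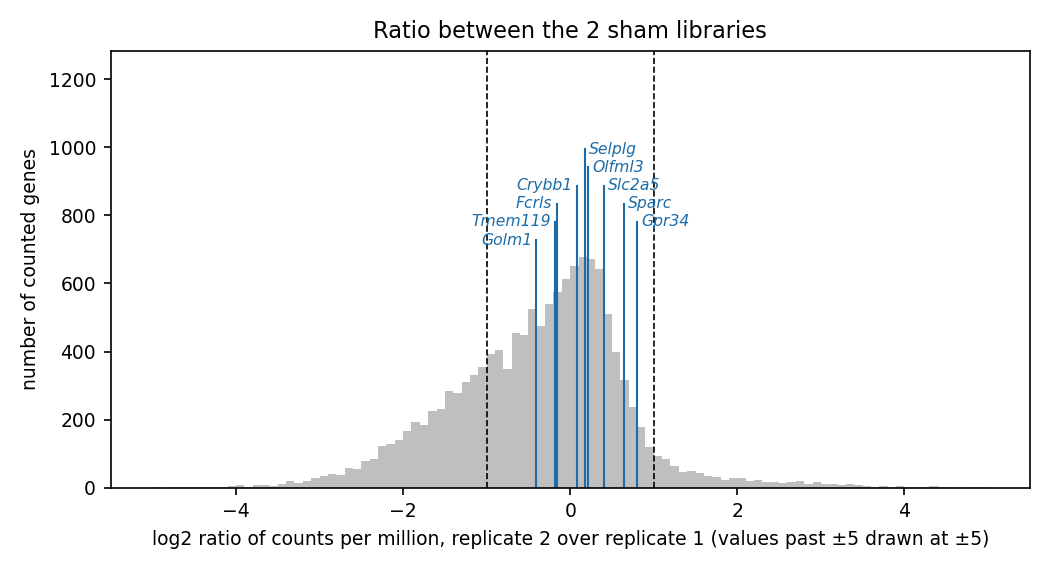
Number of counted genes by the log2 ratio of CPM, replicate 2 over replicate 1, with the 9 genes marked by lines (their height has no meaning) and dashed lines at 2-fold. The 9 genes sit between −0.40 for Golm1 and 0.80 for Gpr34, and the counted genes reach further to the left, with a median of −0.26.

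Within the 9 genes the balance differed between the mice. Tmem119 held 23.6% of their summed counts in replicate 1 and 18.5% in replicate 2, and Fcrls held 17.8% and 14.2%. Sparc held 13.3% and 18.5%, and Gpr34 6.51% and 10.1%. Selplg held nearly the same share, 21.8% and 21.9%. These shares do not depend on the library scaling.

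A wider list of 30 other homeostatic genes was read beside the 9. All 30 of its genes were counted, with sums of 12.4% and 13.2% of the counts, and its highest CPM was that of Cst3, a protease inhibitor gene, with 30902 and 43495 CPM. Of the 30, 22 were within 2-fold, 8 were over 2-fold lower in replicate 2 and 0 were over 2-fold higher. These 26.7% are near the 25.9% of all counted genes that were over 2-fold lower. But 27 of the 30 had a mean CPM at least that of Crybb1. Of the 476 counted genes as abundant, 17.9% were over 2-fold apart in either direction, a smaller share than 26.7%. With TMM 7 were lower, without Sall1, and 1 was higher (Serinc3), against 19.4% and 8.87% of all counted genes. By CPM the 8 were Csf1r, the receptor gene for the survival factor CSF1, with 14910 and 5934 CPM, Tgfbr1 with 1252 and 340 CPM, Adgrg1 with 1316 and 210.1 CPM, P2ry6 with 628 and 132 CPM, Gas6 with 612 and 245 CPM, Mertk with 587 and 207 CPM, Sall1 with 337 and 146 CPM and Bhlhe41 with 96.5 and 15.5 CPM. The median log2 ratio of the list was −0.11, against −0.26 for all counted genes. With TMM it was 0.15, against −0.005 for all counted genes.

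Several regulators of microglial identity had lower CPM in replicate 2. Of 12 listed, 6 were over 2-fold lower, 0 were over 2-fold higher, and the median log2 ratio was −1.09, beside 25.9% lower, 5.74% higher and a median of −0.26 for all counted genes. With TMM 5 of the 12 were lower, without Sall1, and the median was −0.84, beside 19.4% lower and a median of −0.005 for all counted genes. The 6 lower by CPM had 5042 (Tgfb1) to 14681 (Mef2a) exon bases, and the rest 2695 (Spi1) to 15715 (Mef2c). The TGF-β receptor and signal genes were among the 6, with 782 and 132 CPM for Tgfbr2, 137 and 24.8 CPM for Smad3 and 54.7 and 10.7 CPM for the ligand gene Tgfb1, beside Tgfbr1, Sall1 and Mef2a. Spi1, which encodes PU.1, had 700 and 807 CPM. Of 14 disease-associated genes, which rise in microglia near damage, 2 were over 2-fold higher (Lgals3, 84.3 and 293 CPM, and Ccl6, 262 and 576 CPM). Over 2-fold lower were 3, namely Axl (82.8 and 22.6 CPM), Csf1 (43.5 and 6.66 CPM) and Itgax (14.2 and 3.94 CPM). Together they made 35.7% of the 14, near the 31.7% of all counted genes. With TMM 3 were higher, Cd9 with them, and 3 lower, against 8.87% and 19.4% of all counted genes. Apoe had 4213 and 4122 CPM. Of 10 border macrophage markers 5 were over 2-fold lower in replicate 2, against 25.9% of all counted genes, with sums of 1236 and 484 CPM. These 5 had 5461 (Cd163) to 10288 (Stab1) exon bases. The 5 within 2-fold had 721 (Pf4) to 4453 (Ms4a7). The monocyte sum was 716 and 3363 CPM, mostly from Chil3, which immature neutrophils also express. Sums were 235 and 242 CPM for oligodendrocytes, 2.69 and 5.15 CPM for neurons and 23.4 and 369 CPM for the choroid plexus.

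Across all counted genes the ratio between the libraries moved with exon length, a split that was chosen after the values of the wider list were seen. In the quintile of counted genes with the shortest exons (53 to 2026 bases) the median log2 ratio was 0.04, and 13.2% were over 2-fold lower in replicate 2. In the quintile with the longest (7138 to 123179 bases) it was −0.83, and 43.3% were over 2-fold lower. In the next longest (4841 to 7137 bases) it was −0.56, and 35.4% were over 2-fold lower. The 6 lower regulators and the 5 lower border macrophage markers above all fell in these longer quintiles. So did the regulators Irf8, Runx1, Sall3 and Mef2c, which were within 2-fold by CPM. Mef2c had the most exon bases of the 12 regulators (15715) and a log2 ratio of −0.17. Of the 9 genes, 0 fell in the longest quintile, 1 in the next (Olfml3), 4 in the middle, 3 in the next and 1 in the shortest. Their median exon length was 3402 bases, against 4028 for all counted genes. In the wider list the 8 lower genes had a median of 5343 bases and the 22 others 2537. The ratio also moved with GC content, from a median of −0.11 in the quintile of lowest GC to −0.52 in the quintile of highest. After subtraction of the median of genes of like GC content and length, the 9 genes ran from −0.24 for Fcrls to 1.45 for Olfml3, with a median of 0.40. The value of Olfml3 rests on a transcript of 5465 bases in the gene model. What part transcript length, RNA quality or the neutrophil RNA had in these ratios was not tested.

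**Figure D4:**
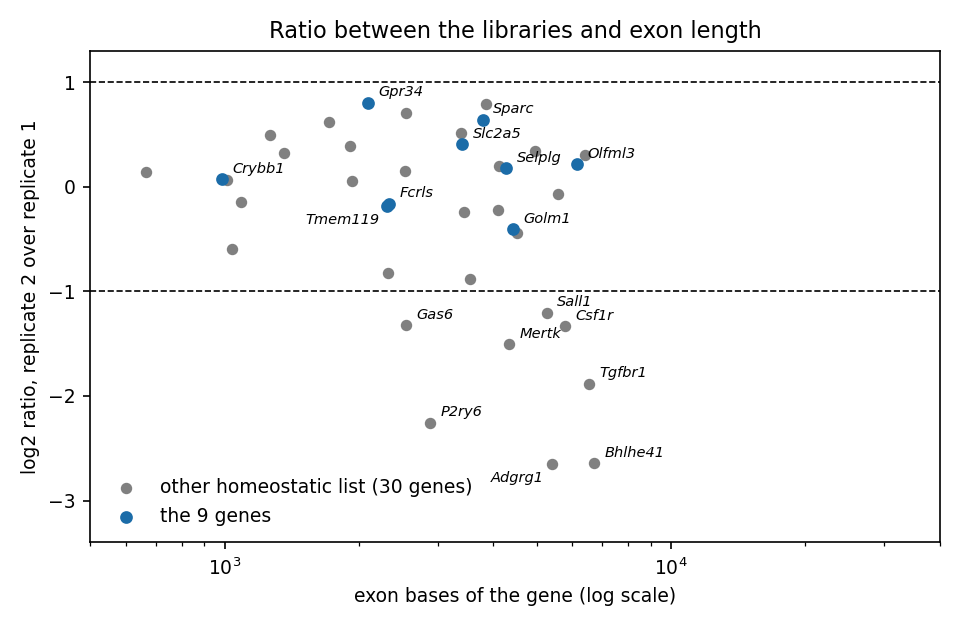
Log2 ratio of CPM, replicate 2 over replicate 1, against exon bases of the gene (log scale) for the 9 genes (blue) and the 30 genes of the wider homeostatic list (grey), with dashed lines at 2-fold. The 8 named grey genes below the lower dashed line have a median of 5343 exon bases, and the 9 genes all lie between the dashed lines.

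**Figure D5:**
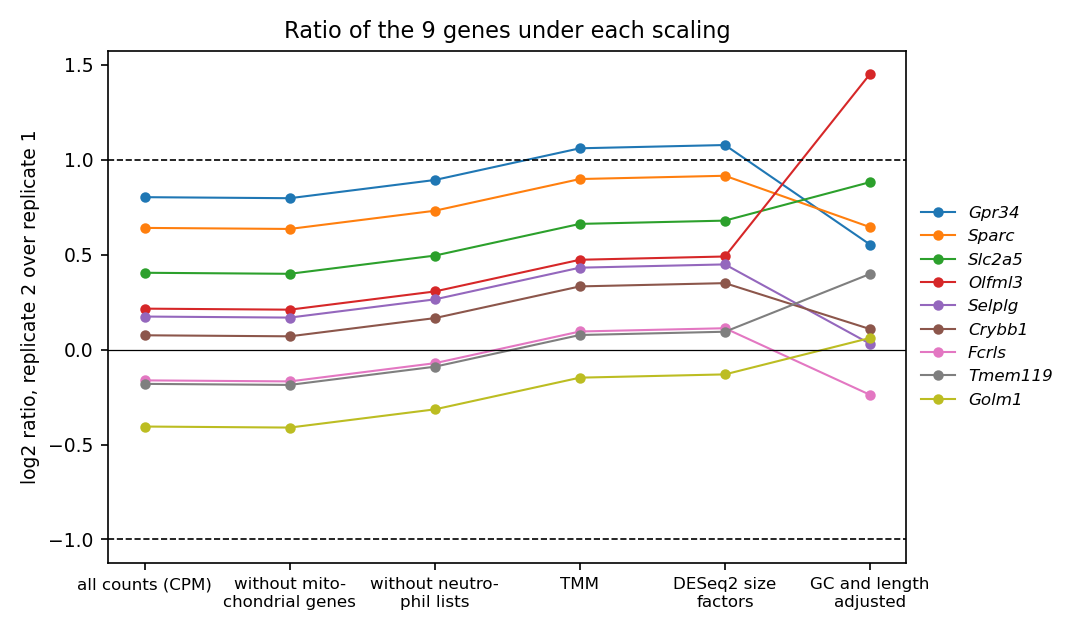
Log2 ratio of each of the 9 genes, replicate 2 over replicate 1, under 6 scalings, with dashed lines at 2-fold and a solid line at equal levels; lines join the values of 1 gene. Gpr34 passes 2-fold with TMM (1.06) and DESeq2 size factors (1.08), and Olfml3 after the GC content and length adjustment (1.45).

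For each of the 9 genes the nearest gene in level outside the 9 was taken by the distance of log2 CPM over the 2 libraries. Actb, the cytoskeletal actin gene, was nearest to both Tmem119 (distance 0.317) and Selplg (0.275), but these 2 genes lay closer to each other (0.268). B2m, the light chain gene of MHC class I, was nearest to Gpr34 (0.11), and P2ry13 to Olfml3 (0.17). The cathepsin genes Ctsb and Ctsh were nearest to Fcrls (0.23) and Slc2a5 (0.017). Itm2b was nearest to Sparc (0.29), Ier2 to Golm1 (0.096) and Necap2 to Crybb1 (0.020). With 2 libraries this is likeness of level alone.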

How the data were processed

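Polyadenylated RNA of sorted cells was copied with the SMART-Seq HT Kit and sequenced after tagmentation. The authors used HISAT2 for mapping to GRCm38 and HTSeq for counting, per the submitters' processing notes and the study's methods, and deposited whole-number counts by Ensembl identifier, not normalized. Versions, annotation release and strand setting are not given in the sources used here. Names were matched for 53620 of 53801 identifiers in GENCODE M21, which also gave lengths and GC content. Gene starts were counted from 1.

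Levels, ranks, SDs and 95% Wilson intervals were computed in Python 3.11.15 with numpy 2.4.6, pandas 2.3.3 and scipy 1.17.1, and figures with matplotlib 3.10.9. A count of 0 allows 3 counts. TMM factors came from edgeR 4.0.16 and size factors from DESeq2 1.42.0 (R 4.3.3), as alternatives only. The GC content and length adjustment subtracted the median ratio of genes in the same of 10 bins of each. Where fewer than 20 genes shared both, the GC bin alone was used. The adjustment was tested on simulated counts with no bias or with a GC bias, but not with a length bias. Other alternatives were totals without mitochondrial genes or neutrophil lists, count minimums of 50 and 1, protein-coding genes alone, and each library alone. The 9 genes and the 22 other lists were chosen with earlier results of these data known. The background of abundant genes, the scaling of the wider list, the length of the coding transcript, the shares without the highest gene, the quintiles by length and the scaling of list counts were chosen after seeing the files. Named genes were the 9 genes, their relatives, partners and neighbours, the nearest gene in level, and of each other list the highest and the most different genes. Some genes that this rule covers are not reported here.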

Additional observations from a re-analysis of the deposited data

How the results depend on the processing

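The summed level of the 9 genes stayed within the spread of the libraries under each other scaling, and was 29957 to 33665 CPM with 1 library left out and 24851 CPM without Selplg. Leaving out 1 of 2 libraries always stays within their SD and says nothing of stability. The median log2 ratio of 0.17 became 0.43 with TMM, 0.45 with DESeq2 size factors, 0.27 without the neutrophil lists in the total and 0.40 after the GC content and length adjustment, the direction staying the same. The number of genes over 2-fold apart, 0 by CPM, was 1 (Gpr34) under either TMM or DESeq2 scaling, 1 after the adjustment (Olfml3) and 2 at 1.5-fold. The smallest change called a move of a median was set at 0.05, by choice. The share of genes over 2-fold apart was 17.9% among abundant genes, and 28.3% to 38.0% under the other scalings and count minimums. By rank, 6 of the 9 genes moved by more than the SD of the libraries per kilobase, and 0 among protein-coding genes alone.

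No paired analysis was possible because both libraries belong to 1 group. By the Wilson intervals, which understate it, counting error was small beside the gap between the libraries for the genes other than Crybb1. The intervals of Crybb1 were about as wide as its gap. The precision was limited mainly by having 2 mice. The libraries differed in neutrophil RNA and in their ratio by gene length, and neither can be told apart from the mouse. Small ratios could change direction with the scaling, as those of Tmem119 and Fcrls did with TMM and DESeq2 size factors. That of Golm1, larger than the shift between scalings, turned after the GC content and length adjustment. Those of Selplg, Olfml3 and Crybb1 kept their sign. With 2 mice no direction is settled.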
